A study of Mus musculus with 4 samples.

Results

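In 1129 rows of the heart table and 660 rows of the tibialis anterior (TA) table, ribosome footprints lay more densely on the 5′ untranslated region (5′UTR) of the mRNA than on the coding sequence (CDS) behind it. Each row is 1 RefSeq transcript model of a gene. A row was taken when its listed 5′UTR was at least 30 nt long, when 5′UTR and CDS each held at least 1 RPM of ribosome-protected fragments (RPF, the mRNA pieces that a ribosome shields from nuclease), and when RPF per nt was higher in the 5′UTR than in the CDS. RPM is reads per 1000000, here relative to the coding reads of the library. In heart 3173 of 10796 rows met the 3 minimums, so 35.6% of them were denser in the 5′UTR; in TA it was 660 of 2028 rows, 32.5%, of 10356 in all. The rows stand for 1269 genes in either tissue, 520 of them in both, out of 11237 genes listed. They are called leader-dense rows here, and the rows that met the minimums without being denser in the 5′UTR (2044 in heart, 1368 in TA) are called the other rows. The density ratio, 5′UTR RPF per nt over CDS RPF per nt, chose the rows: they were selected on RPF of the tissue named, so its values and those of the CDS RPF are a description.

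The samples were heart and tibialis anterior, a fast hindlimb muscle, of 10-week-old male C57BL/6J mice with no treatment named in the labels. Each tissue gave 1 RPF library and 1 total RNA library from the same kind of lysate, made with cycloheximide, a drug that stalls elongating ribosomes. The 4 groups thus had 1 library each, differences stand without any check by replicates, and none carries a p-value. Intervals are 95% Clopper-Pearson intervals on reads and cover counting error only.

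A ribosomal subunit scans an mRNA from its 5′ end, and a start codon in the 5′UTR can make it translate an upstream open reading frame before, or in place of, the main one. Most such frames lower the output of the main coding sequence, some of them in answer to stress or to a metabolite, and a few encode a second protein from the same mRNA. A frame that ends inside the 5′UTR leaves room for reinitiation, while one that overlaps the main start carries the ribosome past it.

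Coding reads numbered about 28120000 for the footprints and 9290000 for the RNA of heart, so 1 RPM was 28.2 and 9.34 reads. For TA they numbered about 28540000 and 16050000, and 1 RPM was 28.6 and 16.1 reads. The leader-dense 5′UTRs had at least 29 reads each and a median of 101 in heart and 85.5 in TA. Markers of the labelled tissues matched the labels. All 6 cardiac markers were listed in heart, with 90203 RPM of coding RNA in sum, and in TA 4 of the 6 were listed with 223.3 RPM. Of 6 fast muscle markers, 5 were listed in heart with 339.5 RPM, and all 6 in TA with 185719 RPM. Endothelial markers (3 of 3 listed in both) summed to 745.9 RPM in heart and 163.8 RPM in TA, and macrophage markers (4 of 4) to 156.1 and 25.7 RPM in heart and TA. Red cell markers (2 of 3 listed in both) summed to 12485 RPM in heart and 471.8 RPM in TA, and fibroblast markers (4 of 4) to 1221 and 1131 RPM. Smooth muscle markers summed to 228.3 RPM in heart (2 of 2 listed) and 60.0 RPM in TA (1 of 2). Nerve markers summed to 1.61 RPM in heart (1 of 2) and 14.0 RPM in TA (2 of 2). In whole tissue fewer cells of a type and less RNA per cell cannot be told apart.

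Upstream start codons of a few genes show what such a 5′UTR holds. Of 11243 listed accessions, 3882 matched a GENCODE vM21 transcript (build GRCm38) by RefSeq accession, by coding length and by the exact length of the 5′UTR. The sequences below come from those transcripts, Amd2 excepted, whose 5′UTR length differs, and were picked after their values were seen. Capitals mark a start codon and, where the frame closes within the window, its stop codon. The first set holds frames that run past the main start into the coding sequence, all in genes that were leader-dense in both tissues or, for Wdfy1, in heart. Egln2 is shown with both of its overlapping starts.
Hras1 (chr7:141193908-141193934, minus strand): acggagctcATGcgcgggcccagccgg
Notch2 (chr3:98013659-98013685, plus strand): ccgctccccATGcggatctgctctggc
Wdfy1 (chr1:79761717-79761743, minus strand): ggtcagctgATGggccgcccgcggggg
Egln2, start 2 of 4 (chr7:27165531-27165557, minus strand): ggtggcaccATGggcccgggccgtgcc
Egln2, start 4 of 4 (chr7:27165498-27165524, minus strand): gcccgggggATGaagacactgctgcca

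Hras1, a small GTPase of growth signalling, has this ATG as the sole one of its 206-nt 5′UTR. It begins at base 80 and opens a frame of 74 codons that passes the main start 127 nt further on. In Notch2, a receptor of cell-to-cell signalling, the sole upstream ATG lies 31 nt before the main start and opens 47 codons. In Wdfy1 it lies 34 nt before the main start of a 69-nt 5′UTR and opens 53 codons. Egln2, an oxygen-sensing prolyl hydroxylase, has 4 upstream ATGs in 349 nt. Those at bases 300 and 333 lie in the same reading frame, which overlaps the main start. It has 26 codons from base 300 and 15 from base 333.

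The second set holds short frames that close inside the 5′UTR, and Slc25a20 has the shortest possible one, a start codon followed at once by a stop.
Tex2 (chr11:106612863-106612889, minus strand): tgtagtaggATGaggcagccagcggat
Ppox (chr1:171280997-171281023, minus strand): acggacaggATGgactgctccTAGggc
Mrps21 (chr3:95870581-95870607, minus strand): cccggaagaATGaagattTAAatacga
Slc25a20 (chr9:108662129-108662155, plus strand): cccacctgaATGTAGgtgaaaggtcgg
Amd2 (chr10:35711863-35711889, minus strand): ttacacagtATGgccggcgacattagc
Eif4g2, main start (chr7:111081530-111081556, minus strand): gccgccaaaGTGgagagtgcgattgca

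Tex2 has a single upstream ATG, with a frame of 9 codons. Ppox, an enzyme of haem synthesis, has 1 with 4 codons, and Mrps21, a protein of the small mitochondrial ribosomal subunit, has 1 with 3 codons in a 5′UTR of 43 nt. Amd2 belongs here as a contrast: its frame of 6 codons is of the kind known from the polyamine-sensing frame of S-adenosylmethionine decarboxylase, its reference 5′UTR (333 nt) differs from the listed 328 nt, and it was not leader-dense in either tissue. Eif4g2, a relative of the scaffold factor eIF4G, is the one leader-dense row with an exact match whose annotated main start is not ATG. It is GTG, 332 nt from the 5′ end.

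Leader-dense rows covered a wide range of density ratios. The median ratio was 1.87 in heart and 1.90 in TA, the highest 370.2 in heart and 74.3 in TA. In heart 511 rows exceeded 2, 134 exceeded 5 and 38 exceeded 10, and in TA 299, 73 and 19 did so. The lower bound of the counting interval was above 1 for 880 of the heart rows (77.9%) and 510 of the TA rows (77.3%), so the remaining rows lay within counting error of equal density. The 5′UTRs themselves held a median of 3.58 RPM of footprints in heart and 2.99 RPM in TA, against 2.41 and 2.20 RPM in the other rows. Their coding sequences held a median of 10.95 RPM in heart and 8.57 RPM in TA, against 43.8 and 38.7 RPM in the other rows. Footprints on the leader were a median of 27.2% of 5′UTR plus CDS footprints in heart and 27.1% in TA, against 6.17% and 6.16% in the other rows. In 193 heart rows and 109 TA rows the 5′UTR had more RPM than the whole CDS without any division by length.

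**Figure D1:**
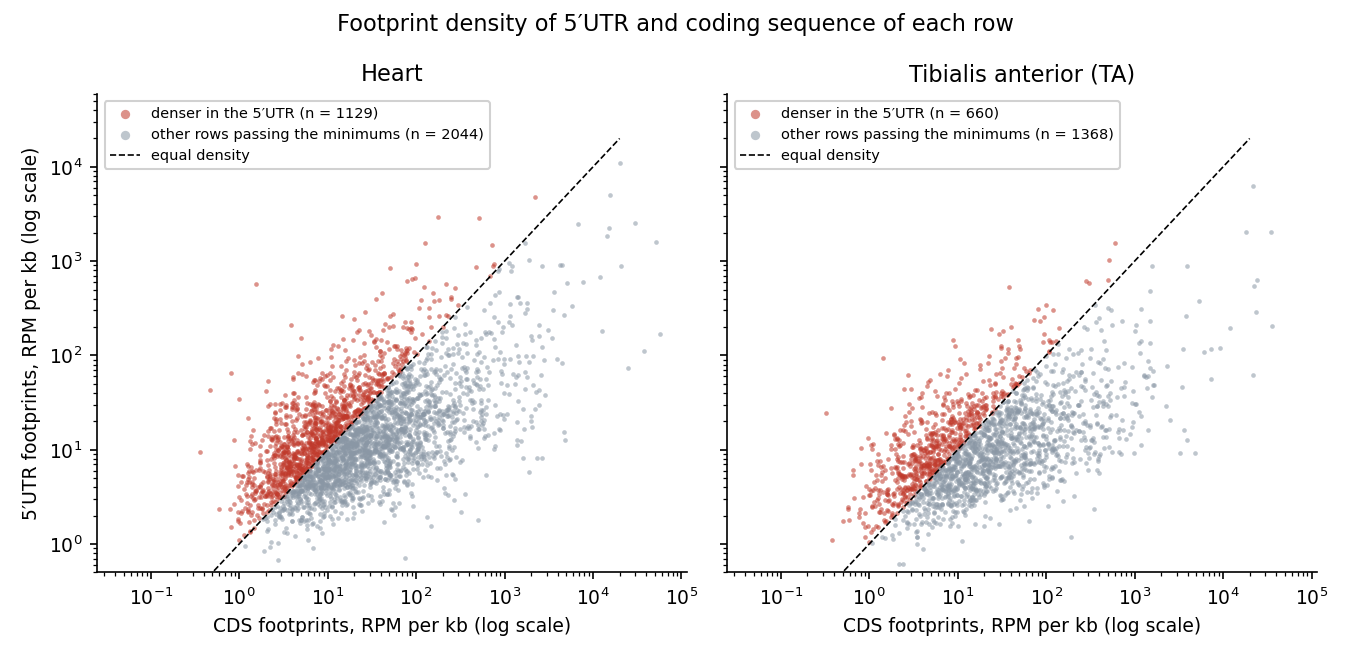
RPF per kb of the 5′UTR (vertical, RPM per kb, log scale) against RPF per kb of the CDS (horizontal, log scale) for each row that met the minimums, in heart (left) and TA (right). The dashed line is equal density, so the 1129 heart and 660 TA rows in red lie above it by the way they were chosen, and they lie mostly at low CDS density.

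Leader-dense rows held more of the leader footprints than of the leader RNA or the coding footprints, which the choice favours since it uses RPF on both parts. They held 39.6% of all 5′UTR RPF in heart and 32.7% in TA, but 16.9% and 11.4% of the 5′UTR RNA, 5.96% and 6.88% of the CDS RPF and 16.7% and 18.1% of the CDS RNA. The other rows held 54.0% of the 5′UTR RPF in heart and 55.5% in TA. Just inside the threshold in heart stood Rrm2b, Sema5a and Slc35b1, all with a ratio of 1.00, and just outside stood Tril (1.00), Nfkb2 (0.998) and Mef2d (0.996). In TA Car14 (1.00), Irf2bp1 (1.01) and Cdadc1 (1.01) were just inside, and Epn1 (0.999), Aplp2 (0.999) and Habp4 (0.998) just outside. Some rows missed the list by the minimum alone. Mkks in TA had 20.7 RPM on its 5′UTR and 0.98 RPM on its CDS, and Ddit3 in heart had 5.63 and 0.78 RPM on 5′UTR and CDS.

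The highest density ratio at 10 or more RPM of 5′UTR RPF was that of Wdfy1, whose protein binds a lipid of endosomes. Its 69-nt 5′UTR held 39.1 RPM in heart and 5.84 RPM in TA, with 0 reads of RNA in both. The limit that a count of 0 allows, 3 reads, is 0.321 RPM for the heart RNA library and 0.186 RPM for the TA one. Its CDS held 1.88 RPM in heart and 0.84 RPM in TA (under the minimum). The ratio was 370.2 in heart, with an interval of 281 to 498, and it was 123.6 in TA, with one of 80.4 to 198.6. Mbd5, of the methyl-CpG-binding family, had 53.8 RPM on a 1258-nt 5′UTR and 2.44 RPM on its CDS in heart, a ratio of 90.8, and in TA 9.02 and 0.91 RPM on 5′UTR and CDS. For Mbd5 the RNA was dense there too: 5′UTR RNA per nt was 2.12 times that of the CDS in heart and 2.60 times in TA.

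Ncapg2 and Bmp6 had little RNA on the leader. Ncapg2, a subunit of condensin II, had 17.6 RPM of 5′UTR RPF and 0.11 RPM of 5′UTR RNA in heart, and 6.61 and 0.12 RPM in TA. Its density ratio was 81.0 in heart and 74.3 in TA. Bmp6, a secreted ligand that also drives the iron hormone hepcidin in liver, had 21.5 RPM of 5′UTR RPF and 0.32 RPM of 5′UTR RNA in heart, and 13.5 and 0.19 RPM in TA. Its ratio was 21.2 (18.0 to 25.0) in heart and 22.5 (18.3 to 27.8) in TA, intervals that overlap. D14Ertd668e, described as PHD finger protein 11, had ratios of 54.8 in heart and 65.7 in TA. The other heart rows of highest ratio were Zfp771 (30.6), 2310003L22Rik (18.1), Mkks (17.5), Acot2 (16.6) and Pecam1 (16.6). In TA they were Tex2 (16.5), Egln2 (14.7), Mrpl18 (13.6), Ppox (11.4), Drosha (10.1), C030048B08Rik (9.48), Cd200 (8.49), Pecam1 (8.07) and Rmnd1 (8.04), beside Bmp6 at 22.5. Drosha cuts primary microRNA transcripts, Cd200 is a membrane glycoprotein that restrains myeloid cells, and Mrpl18 is a protein of the large mitochondrial ribosomal subunit.

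By total RPM, not divided by length, the leader-dense 5′UTR with most footprints in heart was that of Pdlim5, and in TA that of Sparcl1. Pdlim5, a PDZ and LIM domain protein of the Z-disc, had 440.2 RPM of 5′UTR RPF in heart and 93.6 RPM in TA, on 153 nt. Its density ratio was 5.56 in heart and 2.14 in TA, and its CDS was also well covered, with 951.3 and 525.0 RPM in heart and TA. Ckmt2, the creatine kinase of muscle mitochondria, had 402.2 RPM on its 84-nt 5′UTR in heart, where its ratio was 2.15, and 75.3 RPM in TA, where the ratio was 0.576. Sparcl1, a secreted matrix protein, had 300.8 RPM in heart and 141.9 RPM in TA, with ratios of 1.67 and 1.41. Pecam1, an adhesion molecule of endothelium, had 191.9 RPM in heart and 44.2 RPM in TA, and ratios of 16.6 (15.8 to 17.3) and 8.07 (7.48 to 8.71). The rest of the heart list was Rbm24 (138.2 RPM), a splicing regulator of muscle, Rhob (132.7), a small GTPase, 2310042D19Rik (132.5), Ivns1abp (129.6), Ttn (128.4) and S100a1 (127.0), a calcium-binding protein. In TA it was Ttn (139.4), Jph2 (136.0), which ties the transverse tubule to the calcium store, Klhl31 (90.5), Mrps21 (67.7), Eif4g1 (55.8), Dbp (52.9), St3gal2 (52.2) and Abcc9 (51.0), the regulatory subunit of a potassium channel, after Sparcl1 and beside Pdlim5.

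Among genes that met the minimums in both tissues, most with a dense leader in one tissue had it in the other as well. The TA library was not used to choose the heart rows, nor the heart library the TA rows. The minimums that limit this comparison, however, use 5′UTR and CDS RPF of both libraries, so the shares below are not independent of either. Over 1816 genes that met the minimums in both tissues, 520 of the 737 heart members were leader-dense in TA (70.6%), beside 33.0% of all 1816 genes and 79 of the 1079 genes that were not heart members (7.32%). Conversely 520 of the 599 TA members were leader-dense in heart (86.8%), beside 40.6% of all 1816 and 217 of the 1217 genes that were not TA members (17.8%). The median density ratio in TA was 1.48 for heart members and 0.298 for the other genes, and the median ratio in heart was 2.07 for TA members and 0.471 for the other genes. The log2 ratios of both tissues had a Pearson correlation of 0.88 and a Spearman correlation of 0.87 over the 1816 genes, a description in which both values of a gene share its lengths and its sequence. As a share of each whole list, the 520 genes were 46.1% of the heart list and 78.8% of the TA list. Of the heart members 332 were listed in TA below the minimums and 60 were unlisted there, and of the TA members 50 and 11 were so in heart.

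**Figure D2:**
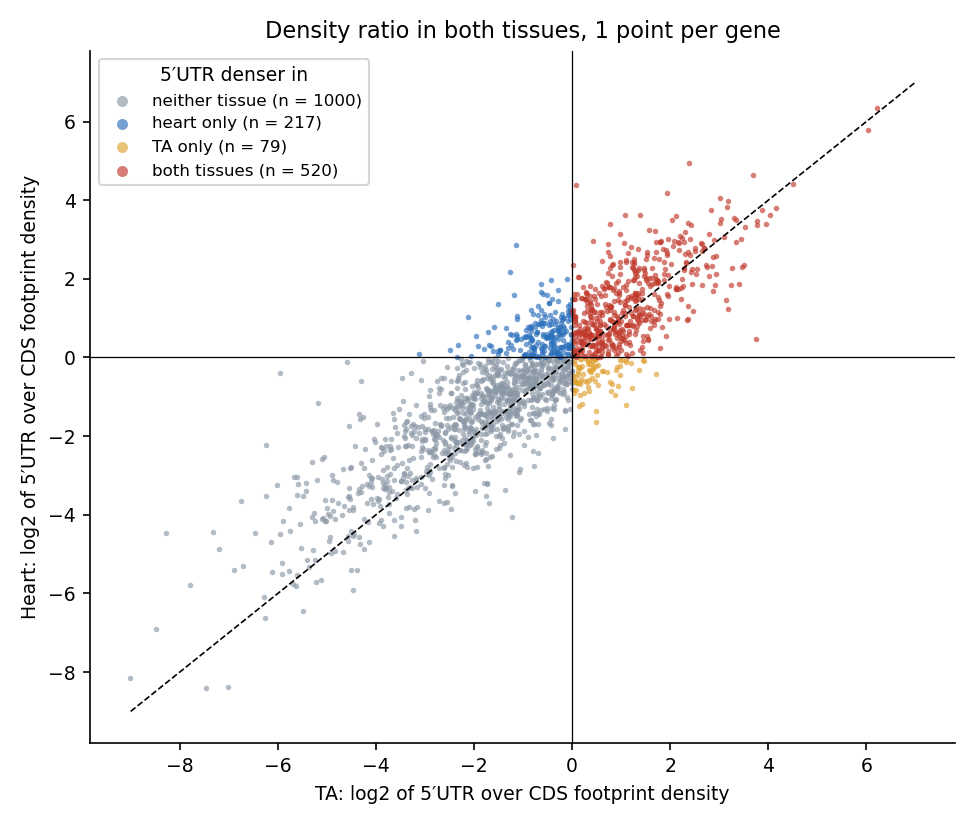
Log2 density ratio in heart (vertical) against TA (horizontal), 1 point for each of 1816 genes that met the minimums in both tissues, with the dashed line at equal ratios. The 520 genes above 0 in both tissues are red, 217 were above 0 in heart and not TA, 79 in TA and not heart, and 1000 in neither.

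The 10 genes with the highest ratio in both tissues at 5 or more RPM were Ncapg2, D14Ertd668e, Bmp6, Egln2, Tex2, Mrpl18, Rfc1, Bet1, Cd200 and Pecam1. Egln2 held 10.6 RPM on its 5′UTR and 2.80 RPM on its CDS in heart, and 15.3 and 3.74 RPM in TA, so that its ratio was 13.6 and 14.7 in heart and TA. Tex2 had ratios of 12.3 in heart and 16.5 in TA. Rfc1, the large subunit of the clamp loader of DNA replication, had 11.2 and 10.2, and Bet1, a SNARE of vesicle traffic, 14.1 and 8.96. Since the genes were picked for a high ratio in both tissues, the likeness of their ratios follows from the choice.

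Ratios were higher in heart than in TA for most genes, leader-dense or not. The median of heart minus TA was 0.37 on the log2 scale over all 1816 genes and 0.20 over the 520 shared genes, whose median ratio was 2.35 in heart and 2.04 in TA. At least 2-fold higher in heart were 85 of the 520 shared genes, a smaller share than the 453 of all 1816 (24.9%). At least 2-fold lower in heart were 28 of the 520, a share near the 95 of all 1816 (5.23%). Footprints on all 5′UTRs summed to 28036 RPM in heart and 13616 RPM in TA, those on all 3′UTRs to 5452 and 2754 RPM, while 5′UTR RNA summed to 29982 and 27391 RPM. Whether what separates the libraries as a whole sets the shift of single genes was not tested. Eef2, the factor that moves the ribosome along, had 82.9 RPM in heart and 18.4 RPM in TA and ratios of 1.83 and 0.660, without an upstream ATG in its 96 nt.

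The largest changes between tissues at 5 or more RPM ran in both directions. Gapdh, Atp5g3, 2010107E04Rik, Atp5j and Snrpb had the largest heart over TA change, and the first 4, of glycolysis and the mitochondrial ATP synthase or its proteolipids, stayed below a ratio of 1 in both tissues. Gapdh had 45.5 RPM on its 50-nt 5′UTR in heart and 6.02 RPM in TA, and ratios of 0.213 and 0.0131. In the other direction stood Ptp4a2, Mef2c, Lrrc39, Rnf41 and Hcfc1r1, with log2 differences between -2.01 and -1.49. Mef2c, a muscle transcription factor, had ratios of 0.186 in heart and 0.617 in TA and was leader-dense in neither.

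Leader-dense rows had more RNA per nt on the leader, relative to the CDS, than the other rows, but not where rows were chosen by RPF per RNA, a choice that itself uses this RNA. There the median log2 RNA density ratio was -1.55 in chosen heart rows and -1.13 in the others, and -1.41 and -1.13 in TA. Among rows with at least 1 RPM of RNA on both parts, the median RNA density ratio, 5′UTR RNA per nt over CDS RNA per nt, was 0.527 in 688 leader-dense heart rows and 0.329 in 1584 other rows, and 0.613 in 382 TA rows and 0.356 in 1050 other rows. The RNA library was not used to choose the rows, but the same lengths divide both ratios. RNA was itself denser on the leader in 74 of the 688 heart rows (10.8%), beside 6.16% of all rows with such RNA, and in 64 of the 382 TA rows (16.8%), beside 8.38%. The ratio of RPF to RNA was higher on the 5′UTR than on the CDS in 673 of the 688 heart rows, beside 64.1%, and in 369 of the 382 TA rows, beside 55.5%, a count fixed in part by the choice of rows. Across leader-dense rows the Pearson correlation of the 2 log2 ratios, whose values share their lengths, was 0.12 in heart and 0.04 in TA. It was 0.43 over all 2272 such rows in heart and 0.41 over all 1432 in TA, so the lower values belong to a range narrowed by the choice. No RNA read at all lay on 50 leader-dense 5′UTRs in heart (4.43%) and 30 of the other rows (1.47%), beside 2.52% of all. In TA it was 24 (3.64%) and 8 (0.585%), beside 1.58% of all rows that met the minimums. CDS RNA was also lower in leader-dense rows, with medians of 24.4 and 53.0 RPM in heart and 19.2 and 44.3 RPM in TA. Whether this sets the difference was not tested.

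Single genes stood at both ends of the RNA scale. Mkks, of the Bardet-Biedl chaperonin group, had 56.6 RPM of 5′UTR RNA and 34.1 RPM of CDS RNA in heart, and 51.4 and 12.3 RPM in TA. Its RNA density ratio was 2.84 in heart and 7.16 in TA. Atxn1 had 2.28 in heart and 1.87 in TA, and Tor1aip2 1.65 and 3.42. Casz1 (3.06) and Myst3 (2.06), both nuclear regulators, completed the top of the TA list, and Mbd5 that of heart. At the other end Rnf10, a RING finger protein, had 6.31 RPM of 5′UTR RNA beside 410.2 RPM of CDS RNA in heart, an RNA density ratio of 0.0769, and 5.59 beside 253.2 RPM in TA, a ratio of 0.110. Yet its RPF density ratio was 2.44 in heart and 1.72 in TA. Eif4g2 had RNA density ratios of 0.0985 in heart and 0.127 in TA with RPF ratios of 1.68 and 3.03. Gpc1 in heart (0.117) and Wnk1 in TA (0.175) were next.

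CDS efficiency was lower in leader-dense rows, which the choice favours since it uses CDS RPF. Efficiency is log2 of CDS RPF over CDS RNA, each with 0.1 RPM added, minus the median of all rows with at least 1 RPM of CDS RNA. Its median was -0.65 in 1126 leader-dense heart rows and 0.29 in 2042 other rows, and -0.73 in 655 TA rows and 0.28 in 1367 other rows. At least 2-fold below the median row were 422 leader-dense rows in heart (37.5%, beside 20.6% of all rows that met the minimums) and 261 in TA (39.8%, beside 22.0%). At least 2-fold above it were 64 in heart, beside 17.5% of all, and 25 in TA, beside 16.2%. The same measure on the 5′UTR, on the same centring, had a median of 1.80 in leader-dense heart rows and 0.59 in other rows, and 1.34 and 0.19 in TA. Because 5′UTR RPF is part of the rule as well, neither value is independent of the choice.

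**Figure D3:**
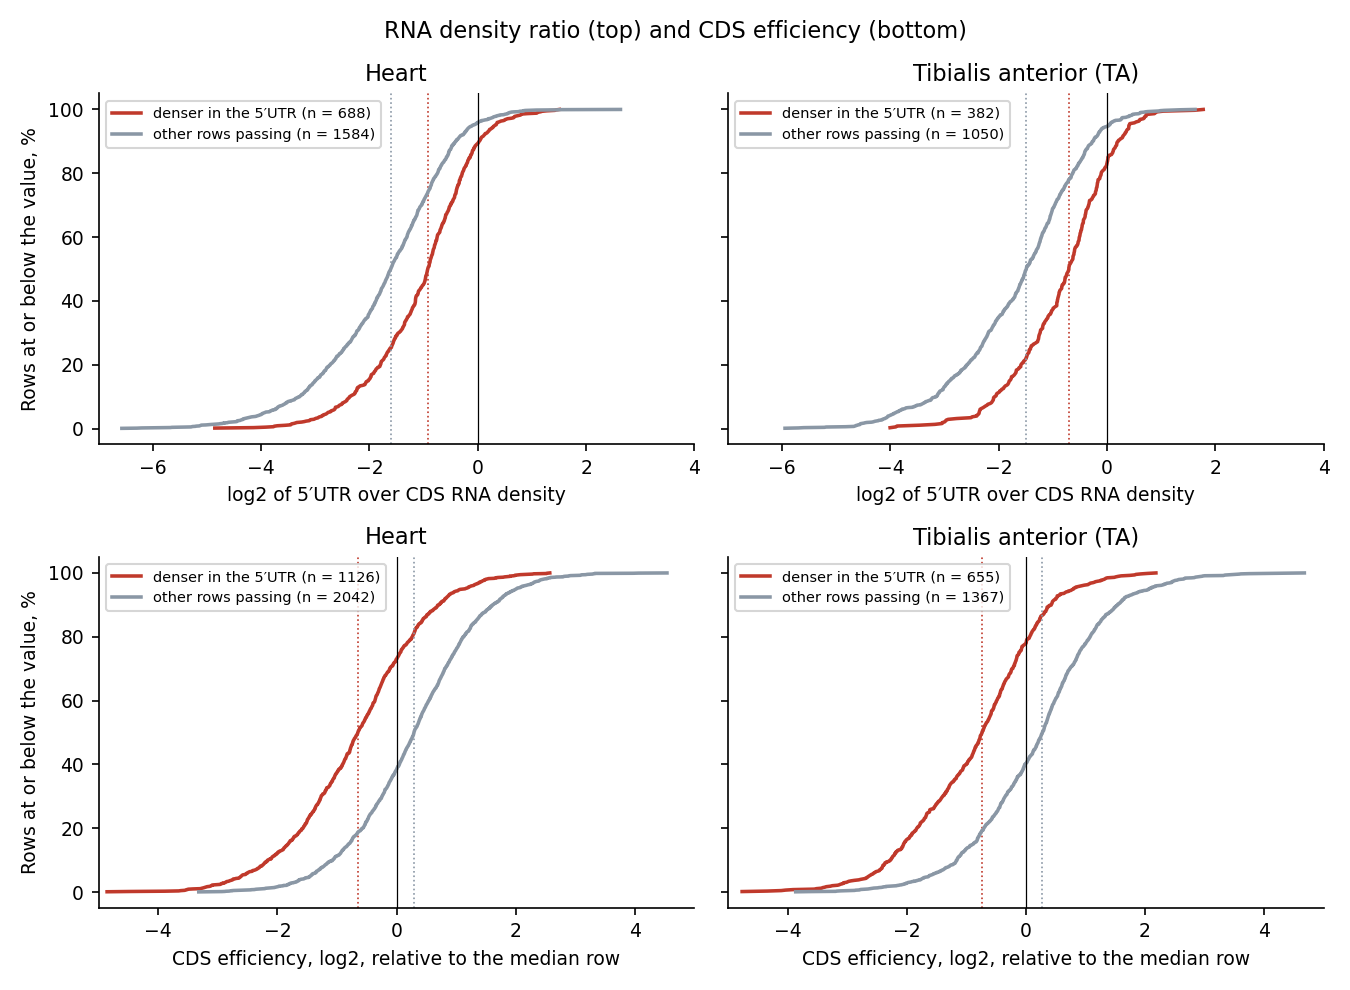
Cumulative share of rows (vertical, percent) by log2 RNA density ratio (top) and by CDS efficiency on the log2 scale (bottom), in heart (left) and TA (right), leader-dense rows in red and other rows in grey, with dotted lines at the medians. The RNA medians are -0.92 and -1.61 in heart and -0.71 and -1.49 in TA, and the efficiency medians -0.65 and 0.29 in heart and -0.73 and 0.28 in TA.

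The lowest CDS efficiencies at 10 or more RPM of CDS RNA were extreme. Ccni, cyclin I, had 105.7 RPM of CDS RNA and 2.59 RPM of CDS RPF in heart, an efficiency of -4.86, and 39.8 and 1.54 RPM in TA, -4.34. Its 626-nt 5′UTR had 4 upstream ATGs, 5.03 RPM of RPF in heart and 4.09 RPM in TA. Mapk6, an atypical MAP kinase, followed in heart at -4.46, with 12 upstream ATGs in 776 nt, before 4833439L19Rik (-3.89), Vps54 (-3.66), of endosome-to-Golgi transport, and Immp1l (-3.62), of a mitochondrial protease. In TA Asnsd1 was lowest at -4.76, then Ccni, Zhx1 (-4.11, with 11 upstream ATGs), Ptp4a2 (-4.03) and Ibtk (-3.91, with 4).

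A smaller set combined a dense leader with a highly efficient CDS, again at 10 or more RPM of CDS RNA. The highest in heart were Cxcl12 (2.53), a chemokine, Bhlhe41 (2.52), Prelp (2.30), Mrps21 (2.28) and Cited2 (1.86). In TA they were Mrps21 (2.18), Pdlim5 (1.93), Mmp2 (1.74), a collagenase, Prnp (1.60) and Bcl6 (1.55). Mrps21 had 64.4 RPM on its 43-nt 5′UTR and 187.2 RPM on its CDS in heart, and 67.7 and 155.0 RPM in TA. Its short frame is among the sequences shown above. Cxcl12 lay near the threshold, with a ratio of 1.01 in heart (0.928 to 1.10).

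Low mRNA abundance went along with leader density. CDS RNA had a median of 24.4 RPM in leader-dense heart rows and 53.0 RPM in other rows, and 19.2 and 44.3 RPM in TA. By quartile of CDS RNA, from the lowest to the highest, 54.2%, 40.1%, 29.4% and 18.7% of heart rows were leader-dense, and 48.7%, 38.5%, 28.6% and 14.4% of TA rows. The minimum of 1 RPM on the 5′UTR bears on this, since a gene of low RNA meets it only with a well-covered leader. By quartile of 5′UTR length the share stayed between 33.8% and 36.8% in heart and was 31.4%, 31.0%, 30.8% and 37.1% in TA. The median 5′UTR was 252 nt in leader-dense heart rows and 265 nt in other rows, and 303 and 283.5 nt in TA. That order was not stable: with a minimum of 0.1 RPM the heart medians were 229 and 203 nt, and with a ratio above 2 the TA medians were 270 and 290 nt. Their coding sequences were longer, with medians of 1461 and 1239 nt in heart and 1588.5 and 1239 nt in TA. The 5′UTR and CDS lengths are divisors in the rule, so neither is independent of the choice.

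Leader-dense 5′UTRs more often held an upstream ATG, a feature that the choice did not use. Among rows with an exact match, 306 of 389 leader-dense heart 5′UTRs had one (78.7%), against 435 of 674 other rows (64.5%), beside 69.7% of both together. In TA it was 207 of 231 (89.6%) against 315 of 459 (68.6%), beside 75.7%. The mean number per 100 nt was 0.760 in leader-dense heart rows and 0.574 in other rows, and 0.887 and 0.574 in TA. A frame that ran into the coding sequence was present in 101 heart rows (26.0%) against 105 other rows (15.6%), beside 19.4%, and in 75 TA rows (32.5%) against 74 (16.1%), beside 21.6%. A frame closed within the 5′UTR was present in 280 heart rows (72.0%) against 410 (60.8%), beside 64.9%, and in 193 TA rows (83.5%) against 301 (65.6%), beside 71.6%. The search read the transcript strand for ATG alone, so other start codons were not counted.

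The excess was present at every length of the 5′UTR. Under 200 nt, 57 of 109 leader-dense heart rows had an upstream ATG (52.3%) against 53 of 161 other rows (32.9%), and 34 of 44 TA rows (77.3%) against 36 of 99 (36.4%). From 200 to under 400 nt, 141 of 169 heart rows (83.4%) had one against 183 of 285 (64.2%), and 88 of 100 TA rows (88.0%) against 132 of 196 (67.3%). At 400 nt and over, 108 of 111 heart rows (97.3%) had one against 199 of 228 (87.3%), and 85 of 87 TA rows (97.7%) against 147 of 164 (89.6%). Read the other way, the share of leader-dense rows was 25.8% of heart 5′UTRs with no upstream ATG, 37.6% with 1 and 43.1% with 2 or more, and 14.3%, 30.2% and 43.4% in TA. With an overlapping frame it was 49.0% in heart and 50.3% in TA. A purine stood 3 bases before the upstream ATG, the place where it favours initiation, in 55.9% of upstream ATGs of leader-dense heart rows and 50.4% of those of other rows, and in 55.7% and 50.4% in TA. Before the main start it stood in 84.1% of leader-dense heart rows and 88.1% of other rows, and in 84.8% and 85.4% in TA.

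**Figure D4:**
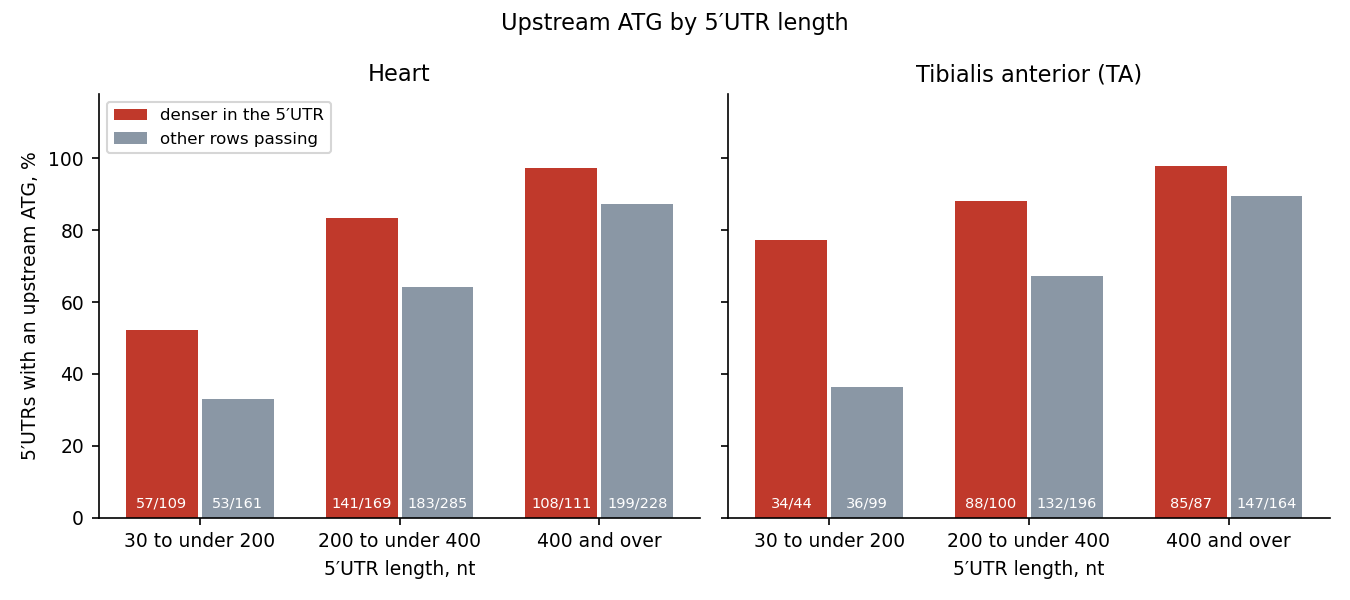
Share of 5′UTRs with at least 1 upstream ATG (vertical, percent) by listed 5′UTR length (horizontal, nt), in heart (left) and TA (right), leader-dense rows in red and other rows in grey, with counts in the bars. Under 200 nt the shares are 52.3% and 32.9% in heart and 77.3% and 36.4% in TA, and at 400 nt and over all 4 shares are above 87%.

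An upstream ATG was not required. Among rows with an exact match, 83 of 389 leader-dense heart rows had none, beside 322 of all 1063 such rows. In TA it was 24 of 231, beside 168 of all 690, so rows without one were less frequent among leader-dense rows. Acot2, a thioesterase of mitochondrial fatty acids, had 119.9 RPM on a 41-nt 5′UTR without an ATG in heart and a ratio of 16.6. Cd200 had 33.4 RPM in heart and 17.0 RPM in TA on 186 nt without an ATG, with ratios of 8.32 and 8.49. Ckmt2, Prnp, Rab2a, Slc29a1 and Srsf2 had none either. The sources used here do not tell to which side a read that spans the main start codon was counted. The listed coding length was 6 nt shorter than the reference coding sequence with its start and stop codons for 11050 of 11158 accessions found there, so those codons seem to lie outside the listed CDS. The share of leader reads that come from ribosomes at the main start was not tested. With the 5′UTR length raised by 30 nt, about a footprint, 992 heart rows and 591 TA rows were denser in the 5′UTR.

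Genes known for a regulatory upstream frame were leader-dense in 11 of 21 rows in heart and 11 of 18 in TA, beside 35.6% and 32.5% of all rows that met the minimums. Ppp1r15a and Ppp1r15b, which direct the phosphatase of the initiation factor eIF2, were so in both tissues. Ppp1r15a had 3.72 RPM on its 5′UTR in heart and 4.27 RPM in TA, and ratios of 4.81 (3.71 to 6.20) and 9.64 (7.27 to 12.8). Ucp2, a mitochondrial carrier whose leader frame limits its translation, had 70.2 RPM in heart and 9.16 RPM in TA and ratios of 4.39 and 3.64. Ddit3, a stress transcription factor, had a ratio of 6.14 in TA. Bace1, Ptp4a1 and 3 of the genes with a second protein were leader-dense in both tissues, Azin1, Eprs and Mkks in heart, and Ptp4a2, Ddit3 and Ibtk in TA. Mkks, Slc35a4, Smcr7l, Asnsd1, Ptp4a1, Ptp4a2 and Azin1 are counted again in smaller groups below. Those counts are therefore not separate from this one.

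Members of the same group without a dense leader were as well known. Atf4, the main transcription factor of the integrated stress response, had 6.27 RPM on its 594-nt 5′UTR and 41.8 RPM on its CDS in heart, and 4.16 and 44.3 RPM in TA. Its ratio was 0.264 in heart and 0.165 in TA. Amd2 had 0.368 and 0.100 in heart and TA, a value to be read with care because near-identical copies of the gene exist. Ifrd1 (0.355 and 0.601) and Vegfa (0.554 and 0.820), a growth factor of vessels, were likewise below 1 in heart and TA. Eprs had a ratio of 1.47 in heart and 0.256 in TA, where its CDS held 426.5 RPM against 197.1 RPM in heart.

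The genes whose leader is known to encode a second protein all passed where they could be judged, 4 of 4 in heart and 3 of 3 in TA. Of all rows, 35.6% and 32.5% did so. Slc35a4 had 6.55 RPM on its 1099-nt 5′UTR and 1.24 RPM on its CDS in heart, and 13.0 and 2.34 RPM in TA. Its ratio was 4.66 (3.23 to 6.89) in heart and 4.89 (3.76 to 6.43) in TA, and its longest upstream frame has 103 codons. Smcr7l, described as the mitochondrial dynamic protein MID51, had 4.92 in heart and 6.77 in TA. Asnsd1 had 1.35 in heart and 2.91 in TA, with 139.0 and 188.5 RPM of CDS RNA and 8.93 and 5.70 RPM of CDS RPF. For Mkks the ratio was 17.5 in heart, with an interval of 13.4 to 23.2. It was 36.3 in TA, with one of 24.9 to 55.1, and there the CDS was just under the minimum. CDS efficiency, in log2 relative to the median row, was between -3.51 for Asnsd1 and -2.10 for Smcr7l in heart, with Mkks and Slc35a4 between them. The remaining gene of the group, Mocs2, did not meet the minimums in either tissue.

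The Ptp4a phosphatases differed among themselves. Ptp4a1 was leader-dense in both tissues, with 32.5 RPM on its 5′UTR in heart and 14.7 RPM in TA, although its ratio of 1.05 in heart has an interval that includes 1 (0.949 to 1.16). Ptp4a2 had 7.69 RPM in heart and 46.3 RPM in TA, with ratios of 0.580 and 2.34. Ptp4a3 had the longest 5′UTR of the group (1434 nt, 13 upstream ATGs) and ratios of 0.256 and 0.149 in heart and TA. CDS efficiency of Ptp4a2 was -3.02 in heart and -4.03 in TA.

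Among polyamine genes 3 of 5 rows were leader-dense in heart and 1 of 5 in TA, beside 35.6% and 32.5% of all rows. Azin1, an inhibitor of the antizyme that degrades ornithine decarboxylase, had 26.0 RPM in heart and 8.25 RPM in TA, and ratios of 1.76 and 0.716. Sat1, which acetylates polyamines for export, had 4.82 and 4.83 in heart and TA, and Sat2 had 5.48 in heart. Odc1 itself had 0.14 RPM on its 5′UTR in heart and 0.56 RPM in TA and did not meet the minimum.

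Of iron genes 4 of 9 rows were leader-dense in heart and 3 of 9 in TA, beside 35.6% and 32.5% of all rows. Hfe2 (hemojuvelin), the muscle co-receptor of bone morphogenetic proteins, had 20.1 RPM on its 5′UTR in heart and 46.8 RPM in TA, and ratios of 5.37 and 4.97. Ftl1, the light chain of ferritin, had 98.5 and 14.9 RPM and ratios of 3.42 and 1.81, and Fth1, the heavy chain, had ratios of 0.165 and 0.0999 in heart and TA. Both ferritin genes have near-identical copies elsewhere, so their values are uncertain. Hmox1, which breaks down haem, had 6.12 in heart and 2.89 in TA, and Ncoa4, the ferritin autophagy receptor, 1.17 in heart and 0.650 in TA. Slc40a1, an iron exporter, had 0.196 and 0.281 in heart and TA, and Tfrc, the transferrin receptor, 0.464 and 0.0914.

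Muscle structure genes were leader-dense in 3 of 18 rows in heart (16.7%) and 3 of 23 in TA (13.0%), with Ttn and Pdlim5 among them in both tissues. Their CDS RNA was high, with a median of 3062 RPM in heart and 5504 RPM in TA, and in the quartile of highest CDS RNA 18.7% of all heart rows and 14.4% of all TA rows were leader-dense. Titin (Ttn), the giant spring of the sarcomere, had 128.4 RPM on a 223-nt 5′UTR in heart and 139.4 RPM in TA, beside 22405 and 52199 RPM on its CDS. Its ratio was 2.65 (2.56 to 2.73) in heart and 1.23 (1.19 to 1.27) in TA, and its RNA density ratio 1.15 and 1.18. Its listed CDS is a composite of exons, 102942 nt long. Of muscle and nuclear receptor transcription factors 11 of 37 rows were leader-dense in heart and 3 of 19 in TA, beside 35.6% and 32.5% of all rows. Hand2, a factor of heart development listed in heart alone, had 16.1 RPM and a ratio of 1.22, and Mef2a had ratios of 1.07 in heart and 0.349 in TA.

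Genes of oxidative phosphorylation were almost never leader-dense, at 1 of 39 rows in heart and 0 of 29 in TA, beside 35.6% and 32.5% of all rows. That row was Ndufb3, with a ratio of 1.15 in heart (1.04 to 1.26) and 0.179 in TA. The median ratio of the group was 0.0471 in heart and 0.0422 in TA. Their CDS RNA was high, with a median of 460.9 RPM in heart and 202.7 RPM in TA. In the quartile of highest CDS RNA 18.7% of all heart rows and 14.4% of all TA rows were leader-dense. Cytosolic ribosomal proteins had 1 of 13 rows in heart and 1 of 6 in TA, Rps25, with ratios of 1.92 and 1.91 on a 41-nt 5′UTR. Mitochondrial ribosomal proteins had 4 of 17 and 3 of 10, with Mrps21, Mrpl16 and Mrpl18 in both tissues. Mrpl18 had 42.7 RPM on its 93-nt 5′UTR in heart and 48.9 RPM in TA, and ratios of 11.1 and 13.6. Of initiation and elongation factors 5 of 20 rows were leader-dense in heart and 4 of 17 in TA, among them Eif4g1, Eif4g2 and Eif5 in both. Eif4g1, the scaffold of the cap-binding complex, had 31.7 RPM in heart and 55.8 RPM in TA and ratios of 2.47 and 3.45.

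Zinc finger genes, taken by their symbols (Zfp, Zbtb, Zkscan and the like), had the largest share of leader-dense rows among the groups with 20 or more rows in heart, 36 of 60 (60.0%), and 21 of 39 in TA (53.8%), beside 35.6% and 32.5% of all rows. Their CDS RNA had a median of 25.0 RPM in heart and 16.8 RPM in TA. These medians lay in the quartile of CDS RNA where 40.1% of all heart rows and 38.5% of all TA rows were leader-dense. Zfp770 had 5.21 RPM on its 5′UTR and 6.91 RPM on its CDS in heart and 4.90 and 7.63 RPM in TA, with ratios of 11.6 and 9.90. Zfp768 had 12.3 in heart and 2.61 in TA, and Zfp260 4.09 and 2.97. Chromatin regulators had 17 of 39 rows in heart and 13 of 31 in TA. Among them Pcgf3, of a Polycomb complex, had ratios of 5.65 and 3.43 and Mll5, a methyltransferase homologue, 3.66 and 5.42 in heart and TA. Splicing and hnRNP genes had 10 of 34 in heart and 4 of 24 in TA.

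Membrane proteins formed further groups. Tmem genes had 22 of 42 rows in heart (52.4%) and 9 of 23 in TA (39.1%), and solute carriers 26 of 62 (41.9%) and 17 of 37 (45.9%). Of all rows that met the minimums, 35.6% were leader-dense in heart and 32.5% in TA. The median CDS RNA of Tmem rows was 19.2 RPM in heart and 20.4 RPM in TA. It lay in the quartile of CDS RNA where 40.1% of all heart rows and 38.5% of all TA rows were leader-dense. Slc25a20, the mitochondrial carnitine carrier, had 45.0 RPM on its 5′UTR in heart and 5.39 RPM in TA, and ratios of 1.15 and 0.359. Slc29a1, a nucleoside transporter, had 2.96 and 1.30 in heart and TA, and Slc16a3, a lactate carrier of fast muscle, 1.10 in TA. Tmem204 had ratios of 2.23 in heart and 1.47 in TA.

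Signalling groups lay near or below the share of all rows, 35.6% in heart and 32.5% in TA. Kinases and phosphatases had 9 of 34 rows in heart and 6 of 26 in TA, protein phosphatase subunits 3 of 21 and 3 of 16, growth factors and receptors 8 of 24 and 5 of 20, small GTPases 11 of 48 and 8 of 31, and ubiquitin ligases 19 of 64 and 17 of 49. Hras1 had 17.8 RPM on its 5′UTR and 3.58 RPM on its CDS in heart, and 17.2 and 6.58 RPM in TA. Its ratio was 13.5 (10.9 to 16.9) in heart and 7.14 (6.02 to 8.49) in TA, with the overlapping frame shown above. Arf6, of membrane traffic, had 3.75 and 1.86 in heart and TA. Notch2 had 5.03 RPM on its leader in heart and 3.15 RPM in TA and ratios of 7.89 and 7.48, whose intervals overlap. Bmpr1a, a receptor of bone morphogenetic proteins, had 5.16 and 1.79, and Fgfr1 3.06 and 1.23. Wnk1, a kinase of ion transport, had 2.66 and 1.98, and Rnf146, a ubiquitin ligase, 2.49 and 1.74.

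Circadian genes had 6 of 13 rows in heart (46.2%) and 3 of 11 in TA (27.3%), on either side of the 35.6% and 32.5% of all rows. Dbp, an output factor of the clock, had 120.0 RPM on its 5′UTR in heart and 52.9 RPM in TA and ratios of 2.95 and 1.50. Arntl, the core activator of the clock, had 4.47 and 2.42 in heart and TA, and Per1, a repressor, 0.437 and 1.15. Bhlhe41, which represses clock transcription, had 1.24 in heart and 0.200 in TA. Immediate early genes had 3 of 7 rows in heart and 1 of 4 in TA. Dusp1, the phosphatase of this group, had ratios of 3.90 in heart and 2.86 in TA, and Ier5 (1.17) and Atf3 (1.13) had intervals that include 1 in heart.

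**Figure D5:**
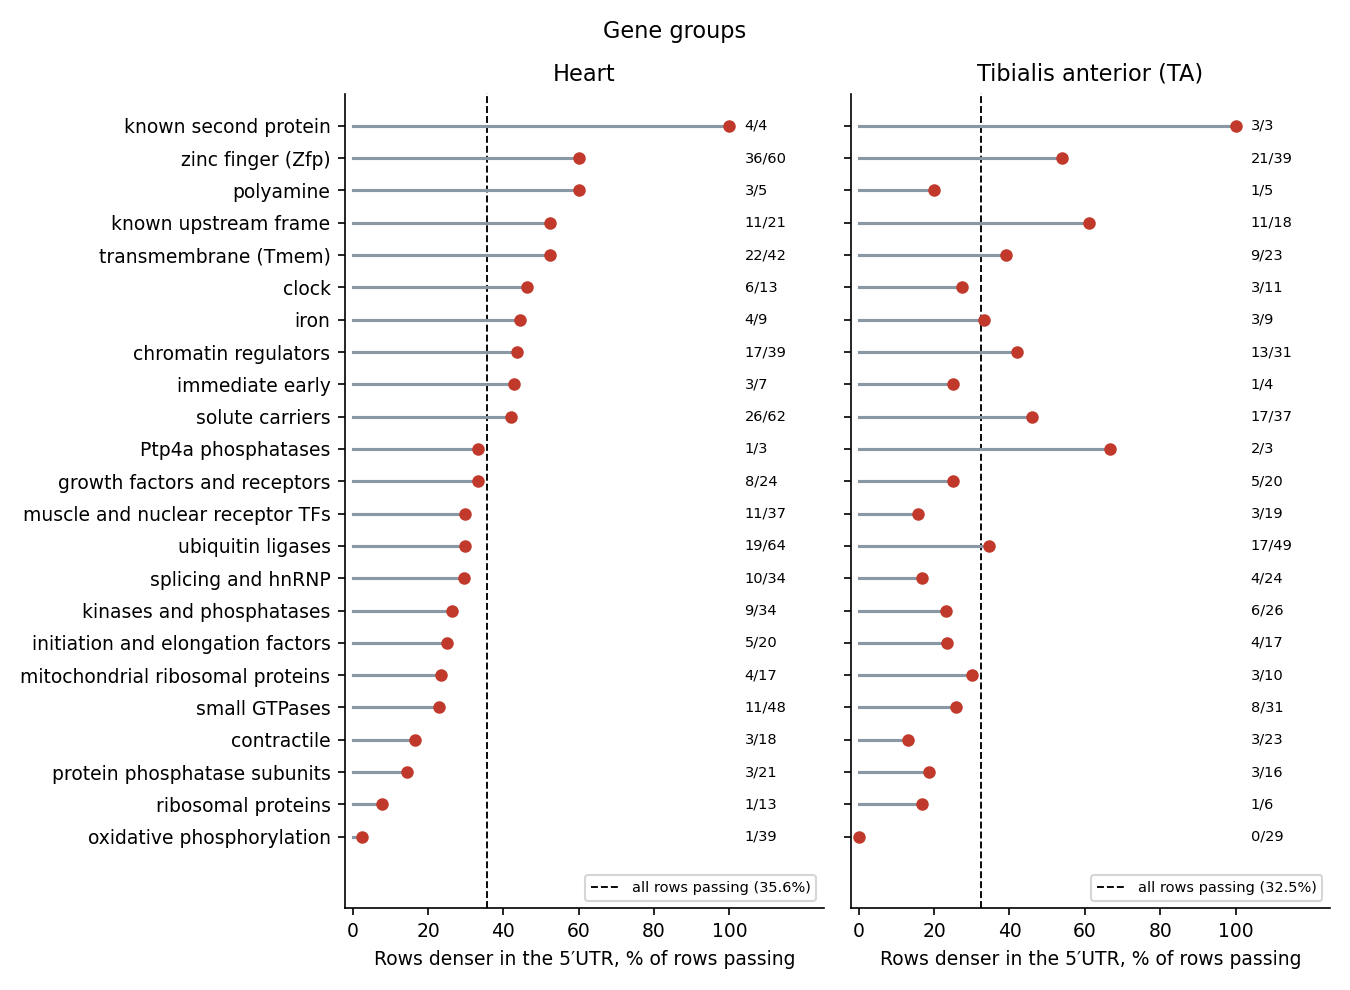
Share of rows that were leader-dense (horizontal, percent of rows that met the minimums) for each of 23 gene groups (vertical), in heart (left) and TA (right), with counts at the right and the dashed line at all rows (35.6% in heart, 32.5% in TA). Known second proteins and zinc fingers lie to the right of the line in both tissues, and oxidative phosphorylation lies near 0 in both.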

How the data were processed

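The deposited values are RPM, per the file headers, for RPF and for RNA on the 5′UTR, CDS and 3′UTR of 1 transcript model per row, with the length of each. The authors did not divide them by length, and CDS values sum to just under 1000000 in each library. The labels say that reads were aligned against RefSeq transcripts, and the submitters' processing notes name Bowtie and mm9. The sources used here give neither its version nor the rule for reads with several places, and the reference used for sequences is of another build (GRCm38).

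Low values were whole multiples of the worth of 1 read within 0.0052 RPM for 100% of those tried in each library. The recovered reads served for counting intervals alone. They are less sure for RPF, where the rounding of the files is a sizeable part of the worth of 1 read. No count test was fitted, because each group has 1 library. The design assumed no test, and the computations were tested on simulated data.

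The leader-dense rows, gene groups and named genes were chosen with earlier results of these data known. Named genes were the 10 highest leader-dense rows by density ratio and by 5′UTR RPF (at 10 RPM), the 10 highest in both tissues and the 5 largest changes each way between tissues (at 5 RPM), 3 rows on each side of the threshold, 5 highest and 5 lowest by CDS efficiency, 3 by RNA density ratio, and the 4 highest of each of 23 gene groups by 5′UTR RPF, with every gene of the upstream frame, second protein, Ptp4a, polyamine and iron groups. Genes named as lacking an upstream ATG were picked from these after their values were seen. A few of these genes are not reported here. No listed column was left without a sample. Software was Python 3.11.15, numpy 2.4.6, pandas 2.3.3, scipy 1.17.1 and matplotlib 3.10.9.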

Additional observations from a re-analysis of the deposited data

Results flagged for a closer look

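Among the genes named for the largest change between tissues, 4 had the leader denser than the CDS in 1 tissue and less dense in the other. Each compares 2 RPF libraries, and the difference between tissues was not tested. Snrpb, a core protein of spliceosomal particles, had a density ratio of 2.99 in heart and 0.439 in TA, a log2 difference of 2.77. Its 5′UTR held 28.9 RPM in heart and 8.50 RPM in TA, while 5′UTR RNA was 1.71 and 2.05 RPM. Ptp4a2 had 0.580 in heart and 2.34 in TA, a log2 difference of -2.01, with RNA density ratios of 0.740 and 0.755. Lrrc39, a leucine-rich repeat protein of striated muscle, had 0.550 in heart and 1.74 in TA, a difference of -1.67. Rnf41, a ubiquitin ligase, had 0.951 in heart, with an interval from 0.780 to 1.15 that includes 1, and 2.73 in TA, a difference of -1.52.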

How the results depend on the processing

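With a minimum of 5 RPM in place of 1, the leader-dense rows were 384 of 881 in heart and 179 of 469 in TA, with 124 genes in both. With a minimum of 0.1 RPM they were 1647 of 7197 in heart and 1147 of 5910 in TA, with 844 genes in both. The leader-dense share of the rows that met the minimums was thus higher at 5 RPM and lower at 0.1 RPM than at 1 RPM. With a ratio above 2 the leader-dense rows were 511 and 299, with 210 genes in both. The other alternatives to the rule left these counts within 1.5 times. The median log2 RNA density ratio of leader-dense rows was -1.10 in heart and -0.88 in TA at a minimum of 5 RPM, -0.62 and -0.42 with at least 5 RPM of RNA, and -0.59 in TA with a ratio above 2. Where rows were chosen by RPF per RNA it was -1.55 and -1.41, below the -1.13 of the other rows in both tissues, a choice that itself divides by this RNA. CDS efficiency had a median in heart of -0.36 at 5 RPM, -0.76 at 0.1 RPM, -0.77 with a ratio above 2 and -0.45 by RPF per RNA, and in TA of -0.59 at 5 RPM and -0.86 at 0.1 RPM. The median 5′UTR length was 229 nt in heart and 262 nt in TA at 0.1 RPM, 278 and 342 nt with 5′UTRs of at least 100 nt, 235 and 270 nt with a ratio above 2, and 312.5 and 351 nt by RPF per RNA. Medians of leader-dense rows kept their sign under the alternatives run, but their order against the other rows did not always. In heart the 5′UTR was longer in leader-dense rows than in other rows at 0.1 RPM (229 and 203 nt), with 30 nt added (267 and 257 nt) and by RPF per RNA (312.5 and 245.5 nt). In TA it was shorter with a ratio above 2 (270 and 290 nt).

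No paired analysis was possible because each group has 1 library. Allowing 5′UTR lengths within 10 nt of the reference, an alternative chosen after seeing the data, an upstream ATG was in 78.9% of leader-dense heart rows and 88.4% of TA rows. With 1 library per group, neither the spread between animals nor that between preparations is known, and reads without molecular identifiers are not independent molecules. Depth limits the RNA ratio, since 1 RPM is 9.34 reads in heart RNA.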

Other observations

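Footprints past the stop codon were sparse on all rows, and not more so on the leader-dense rows than on the other rows. Rows counted here had a 3′UTR of at least 30 nt and at least 1 RPM of 3′UTR RNA. The median of 3′UTR RPF over 3′UTR RNA was 0.0104 in leader-dense heart rows and 0.0071 in other rows, and 0.0059 and 0.0044 in TA. Over all listed rows it was 0.0112 in heart and 0.0064 in TA.

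A start codon followed at once by a stop, as in Slc25a20, was in 41 of 389 leader-dense heart 5′UTRs with an exact match (10.5%) and 54 of 674 other rows (8.01%), and in 26 of 231 (11.3%) and 47 of 459 (10.2%) in TA. At least 50% of the bases, by the reference annotation, were coding in another isoform or gene for 11 of the 389 heart 5′UTRs (2.83%) and 12 of the 674 in other rows (1.78%), and for 7 of the 231 TA 5′UTRs (3.03%) and 8 of the 459 (1.74%). Base composition was close, with a median GC content of 62.5% in leader-dense heart rows and 64.0% in other rows, and 61.1% and 62.1% in TA.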
